A study of Mus musculus with 8 samples.

Results

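The Itm2 (BRI) family and the genes of amyloid precursor processing were followed in the hippocampus of wild-type and Mbd2-/- mice. The members were chosen by gene symbol as 9 of the 19201 genes in the deposited table: the Itm2 genes Itm2a, Itm2b and Itm2c, the precursors App, Aplp1 and Aplp2, and the secretase genes Adam10, Bace1 and Psen2. The family was selected from the measured values, because Itm2c rose so far without Mbd2, and the other members because Itm2 proteins bind or regulate the amyloid precursor. The difference between the genotypes is therefore given for the 9 members as a description. Where a member is said to be called, this is its place in the fit across all genes and no independent test. All 9 averaged at least 10 normalized counts across libraries and were among the 14504 genes tested.

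Hippocampal RNA depleted of ribosomal RNA was sequenced in 8 libraries, 4 from wild-type C57BL/6 mice and 4 from Mbd2-/- mice on a C57BL/6 background. Each library pooled the hippocampi of 2 mice of 10 to 12 weeks, littermates bred from heterozygous parents, so the replicates are pools rather than single animals. The null allele is present in every cell and throughout life, and reads from its first exon are still made. The study states that hippocampi of both sexes were grouped in balanced numbers. In these libraries Xist, the RNA of the inactive X chromosome in females, was at 0 to 5.77 normalized counts, and Y-linked Ddx3y was at 469 to 939. With Xist near 0 beside Y-linked reads, all 8 libraries look male, which differs from that statement of the study. The sex of the mice in each pool is not in the labels, and the spread between libraries may be partly technical. Reads assigned to genes numbered 8439570 to 23790825 in the wild-type libraries and 8087750 to 14020765 in the Mbd2-/- libraries. A normalized count is the number of reads of a gene over the size factor of its library.

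Proteins of the Itm2 family cross the membrane once, carry a BRICHOS domain and are cut by furin-like proteases, which release a peptide from their outer end. Extended forms of that peptide, made from mutant ITM2B, form the deposits of familial British and Danish dementia. Itm2b and Itm2c bind the amyloid precursor protein and restrain its cutting by secretases. Adam10 cuts the precursor within the amyloid-beta stretch, Bace1 cuts at its start, and gamma-secretase, of which presenilin 2 is a catalytic subunit, cuts within the membrane. Mbd2 binds methylated CpG dinucleotides and recruits the NuRD corepressor complex.

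Since Mbd2 reads methylated CpG, the sequences just before the Itm2 genes are shown with each CpG in capitals. Each run holds the 250 bases before the outermost start annotated by GENCODE or RefSeq, read 5′ to 3′ on the strand of the gene from the mm9 assembly. The run lies at chrX:104598716-104598965 (minus strand) for Itm2a, at chr14:73785097-73785346 (minus strand) for Itm2b and at chr1:87790606-87790855 (plus strand) for Itm2c. No annotated gene overlapped any of them.
Itm2a: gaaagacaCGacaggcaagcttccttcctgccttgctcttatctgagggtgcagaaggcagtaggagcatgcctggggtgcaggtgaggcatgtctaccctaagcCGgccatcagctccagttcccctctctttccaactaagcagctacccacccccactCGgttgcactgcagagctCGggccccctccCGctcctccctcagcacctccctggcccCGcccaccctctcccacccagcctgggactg
Itm2b: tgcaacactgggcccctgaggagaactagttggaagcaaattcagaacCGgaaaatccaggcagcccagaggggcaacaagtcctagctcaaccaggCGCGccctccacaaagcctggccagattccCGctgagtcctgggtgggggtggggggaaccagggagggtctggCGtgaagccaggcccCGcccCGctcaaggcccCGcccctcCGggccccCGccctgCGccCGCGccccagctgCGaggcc
Itm2c: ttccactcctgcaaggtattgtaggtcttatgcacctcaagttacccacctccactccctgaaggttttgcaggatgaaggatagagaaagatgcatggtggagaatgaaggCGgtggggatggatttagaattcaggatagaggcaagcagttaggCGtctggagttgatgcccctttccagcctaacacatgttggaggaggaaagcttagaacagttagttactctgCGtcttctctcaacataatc
These runs hold 6 CpGs for Itm2a, 14 for Itm2b and 3 for Itm2c. The RefSeq start of Itm2c lies 229 bases inside the GENCODE gene. Its RefSeq promoter, the 300 bases from 250 before to 50 after that start, holds 20 CpGs. The same window holds 21 CpGs for Itm2b and 7 for Itm2a, and the median of all 32851 promoters in the RefSeq table is 7. The promoters of the other members hold more: 26 CpGs for Aplp1, 29 for Aplp2, 30 for App and 32 for Adam10, while the windows of the starts listed for Psen2 hold 8 and 23. Bace1 has no entry in that table. At least 1 CpG was present in 94.6% of all promoters. The counts describe the letters only, and methylation at these sites was not analysed here.

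The libraries were checked against the tissue and the genotype before the members were compared. None of 9 markers of hippocampal principal neurons was at 0, and their summed normalized count was 93160 to 94990 in wild-type and 102843 to 108140 in Mbd2-/-. Most of that sum is Camk2a, with means of 68037 and 81908, the only 1 of the 9 called higher. Prox1 (1641 and 1431), Wfs1 (1595 and 1283) and Fibcd1 (2127 and 1747) were called lower. Of all tested genes, 12.0% were called higher and 10.0% lower. Mbd2 itself, summed over the whole gene, was 346 ± 34.4 (SD, n = 4) in wild-type and 260 ± 54.3 in Mbd2-/-, a log2 fold change of -0.43 with an SE of 0.12 (limma, adjusted p = 0.0174). The groups overlapped for Mbd2, and it was not called without wild-type replicate 3 or without Mbd2-/- replicate 1 or 2 (limma, adjusted p from 0.0542 to 0.0625). Mbd2-/- replicate 4 stood apart from the other Mbd2-/- libraries. Spearman's rho between transcript length and the difference from the wild-type mean, across genes that are not independent, was -0.10 in that library and between -0.43 and -0.49 in the other 3. The wild-type libraries gave -0.06 to 0.06, but they make up that mean, so their values lie around 0 by construction. Because the Mbd2-/- libraries differed in this, member values are also given after each library's trend on length was taken out and without Mbd2-/- replicate 4.

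The Itm2 family held the largest change of all tested genes. Itm2c, which encodes BRI3, a membrane protein enriched in brain, lies on chromosome 1 of mm9 from 87790856 to 87805250. Its normalized counts were 1320, 1380, 1348 and 1386 in wild-type replicates 1 to 4 and 11038, 11336, 12662 and 9710 in Mbd2-/- replicates 1 to 4. The lowest Mbd2-/- library lay far above the highest wild-type library, and the Mbd2-/- libraries were also the more scattered, with a coefficient of variation of 10.8% against 2.24%. The mean went from 1359 ± 30.4 (SD, n = 4) to 11186 ± 1211, which is 8.23-fold higher. These values rest on 881 to 2610 reads per wild-type library and 7944 to 12396 per Mbd2-/- library.

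The log2 fold change of Itm2c was 3.03 with an SE of 0.06 and ranked 1 of 14504, the next gene having 2.42. Of all tested genes, 41 had a log2 fold change of at least 1 and 3 of at least 2. Among the 2941 tested genes with a wild-type mean of at least 1000 normalized counts, the next largest increase was that of Ttr, the transthyretin gene, at 1.32. The value for Itm2c was 2.96 with the length trend removed and 3.10 without Mbd2-/- replicate 4.

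**Figure D1:**
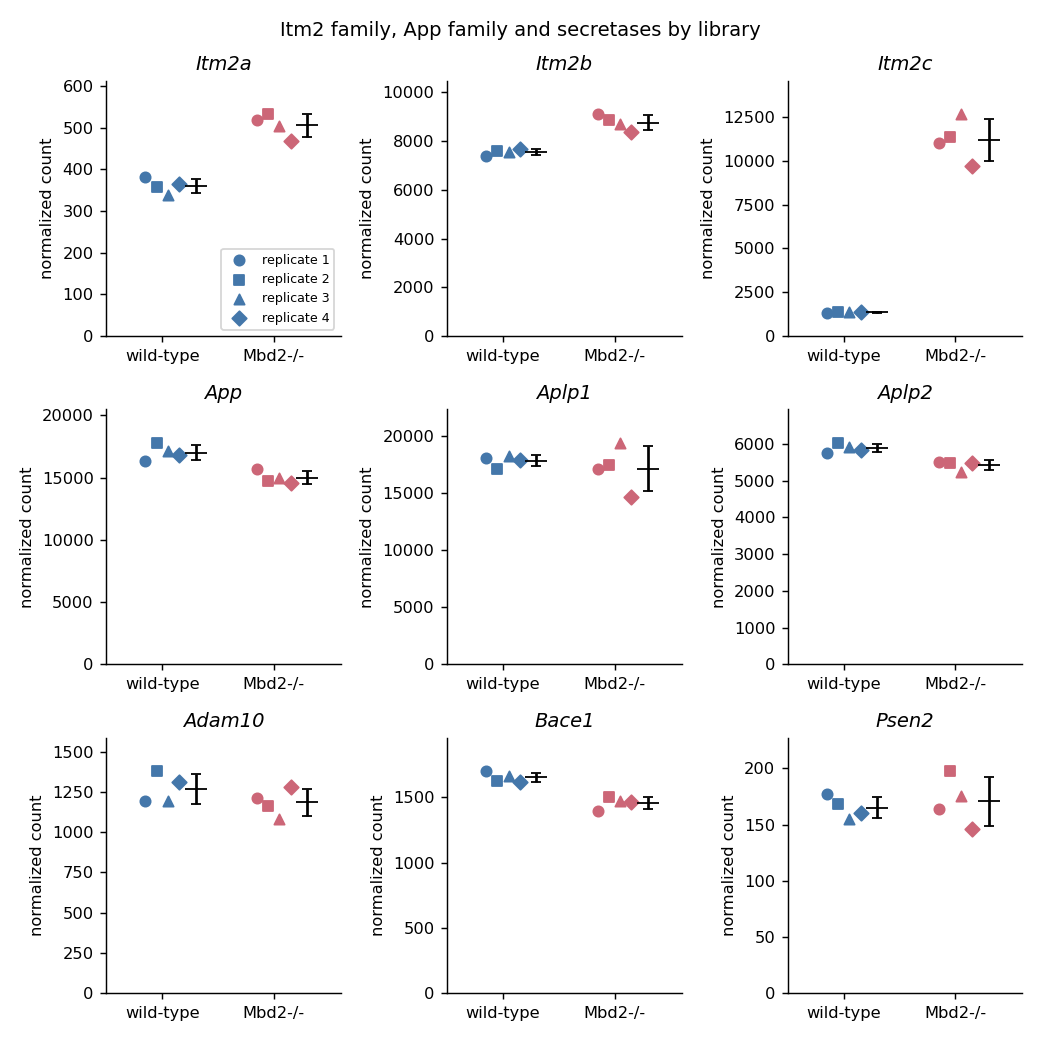
Normalized count (vertical axes, starting at 0) of each of the 9 genes in the 4 wild-type (blue) and 4 Mbd2-/- (red) libraries, with symbols for the replicate numbers and a black bar for the mean ± SD. Itm2c moves from about 1359 to 11186, Itm2a and Itm2b sit higher in every Mbd2-/- library, and App, Aplp2 and Bace1 sit lower in every Mbd2-/- library.

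The other family members moved in the same direction by far less. Itm2a, on the X chromosome from 104592438 to 104598715, is known from differentiating cartilage, muscle and T cells. Wild-type replicates 1 to 4 had normalized counts of 381, 357, 338 and 364, and Mbd2-/- replicates 1 to 4 had 518, 532, 504 and 467. The groups did not overlap, and the mean went from 360 ± 17.6 (SD, n = 4) to 505 ± 28.1, a log2 fold change of 0.49 (SE 0.07) that was called higher. It was 0.36 with the length trend removed and 0.53 without Mbd2-/- replicate 4, and was called in both cases.

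Itm2b, which encodes BRI2, the family member linked to dementia, lies on chromosome 14 from 73762038 to 73785078. Its normalized counts were 7382, 7611, 7565 and 7683 in wild-type replicates 1 to 4 and 9103, 8863, 8712 and 8356 in Mbd2-/- replicates 1 to 4. Every Mbd2-/- library lay above every wild-type library, with means of 8759 ± 313 (SD, n = 4) and 7560 ± 129. The log2 fold change was 0.21 (SE 0.04), and Itm2b was called higher. With the length trend removed it was 0.09 (SE 0.04) and no longer called, and without Mbd2-/- replicate 4 it was 0.23. The longest transcripts of Itm2a (1744 bases), Itm2b (1773) and Itm2c (2230) are all shorter than the median of 3184 bases over the tested genes.

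The balance within the family shifted in each library. This share is taken within a library and does not depend on the scaling between libraries. Per kb of the longest transcript, Itm2c made up 11.9%, 12.1%, 11.9% and 12.0% of the summed Itm2 level in wild-type replicates 1 to 4 and 47.7%, 48.9%, 52.2% and 46.6% in Mbd2-/- replicates 1 to 4. The share of Itm2b was 83.9% ± 0.219 (SD, n = 4) in wild-type and 48.3% ± 2.31 in Mbd2-/-, with no overlap between the groups. Itm2b thus dominated the family in every wild-type library, whereas Itm2c and Itm2b were at near parity in Mbd2-/-. Counted as reads without regard to length, the share of Itm2c went from 14.6% ± 0.105 to 54.6% ± 2.38. Which of the pair was higher in Mbd2-/- depended on the length used, since as reads Itm2c exceeded Itm2b in all 4 libraries and per kb in replicates 2 and 3. The summed normalized count of the family was 9279 ± 150 in wild-type and 20450 ± 1395 in Mbd2-/-.

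**Figure D2:**
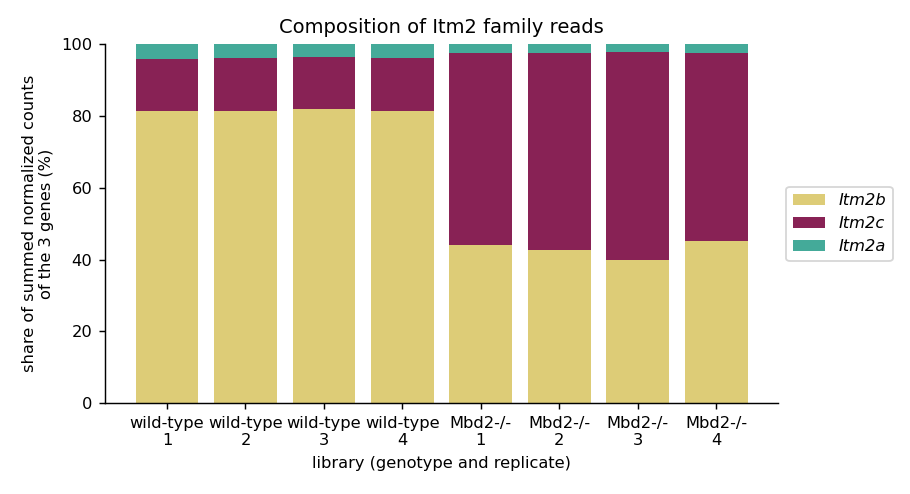
Share of the summed normalized counts of Itm2a, Itm2b and Itm2c (vertical axis, percent) taken by each gene in each of the 8 libraries (horizontal axis). The Itm2c segment is 14.5% to 14.8% in the wild-type libraries and 52.4% to 57.9% in the Mbd2-/- libraries.

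The amyloid precursor family did not follow the Itm2 genes. App, the amyloid precursor gene, lies on chromosome 16 from 84954685 to 85173952. Wild-type replicates 1 to 4 stood at 16346, 17793, 17099 and 16776 normalized counts, against 15686, 14732, 15003 and 14554 in Mbd2-/- replicates 1 to 4. The groups did not overlap, and the mean fell from 17003 ± 610 (SD, n = 4) to 14994 ± 497. App was called lower with a log2 fold change of -0.18 (SE 0.04), which was -0.17 with the length trend removed and -0.17 without Mbd2-/- replicate 4, and it was called in both cases.

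Aplp2, an App homologue expressed in many tissues, lies on chromosome 9 from 30957142 to 31019400. Its normalized counts were 5753, 6030, 5914 and 5838 in wild-type replicates 1 to 4 and 5505, 5482, 5234 and 5468 in Mbd2-/- replicates 1 to 4. The groups did not overlap, yet the log2 fold change of -0.12 (SE 0.04) was not called by limma, whereas it was called lower by DESeq2 and without Mbd2-/- replicate 4 (-0.12). With the length trend removed it was -0.09. Aplp1, the homologue that is largely restricted to neurons, lies on chromosome 7 from 31220001 to 31230580. Its libraries gave normalized counts of 18106, 17150, 18287 and 17884 in wild-type replicates 1 to 4 and 17085, 17444, 19425 and 14684 in Mbd2-/- replicates 1 to 4. Mbd2-/- replicate 3 was the highest and Mbd2-/- replicate 4 the lowest of all libraries, so the groups overlapped, and the log2 fold change of -0.06 (SE 0.06) became 0.0084 without Mbd2-/- replicate 4 and -0.12 with the length trend removed. Of the summed level of the family per kb, App made up 35.8% ± 1.2 (SD, n = 4) in wild-type and 34.1% ± 1.93 in Mbd2-/-, a difference within the spread of the libraries.

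Of the 3 secretase genes, Bace1 was the only one called. Bace1, the beta-secretase gene, lies on chromosome 9 from 45646663 to 45672482. Its normalized counts were 1701, 1627, 1665 and 1621 in wild-type replicates 1 to 4 and 1396, 1506, 1471 and 1467 in Mbd2-/- replicates 1 to 4. The groups did not overlap, and the mean fell from 1654 ± 37.4 (SD, n = 4) to 1460 ± 46.4, a log2 fold change of -0.18 (SE 0.05). The call was lost with the length trend removed (log2 fold change -0.08) and without wild-type replicate 1 (-0.17), wild-type replicate 3 (-0.18) or Mbd2-/- replicate 1 (-0.16), and the value was -0.18 without Mbd2-/- replicate 4. The longest transcript of Bace1, at 6058 bases, is the longest among the members. The gene also overlaps Rnf214 on the opposite strand, and since the strand setting of the counting is not given in the sources used here, reads of the overlap cannot be assigned to either gene with certainty.

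Adam10, the main alpha-secretase of neurons, lies on chromosome 9 from 70526804 to 70628036. It gave normalized counts of 1195, 1379, 1193 and 1312 in wild-type replicates 1 to 4 and 1214, 1163, 1079 and 1283 in Mbd2-/- replicates 1 to 4. The groups overlapped, and the log2 fold change was -0.10 (SE 0.07), -0.04 with the length trend removed and -0.14 without Mbd2-/- replicate 4. Psen2, on chromosome 1 from 182157135 to 182193569, gave 177, 169, 155 and 160 in wild-type replicates 1 to 4 and 163, 198, 175 and 146 in Mbd2-/- replicates 1 to 4. Its groups overlapped as well, with a log2 fold change of 0.04 (SE 0.10) that turned to -0.06 with the length trend removed and to -0.03 without Mbd2-/- replicate 2, and was 0.11 without Mbd2-/- replicate 4. With 110 to 302 reads per library, Psen2 was the least deeply sampled member.

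In all, 3 members were called higher, 2 were called lower and 4 were not called by limma, where a call is a Benjamini-Hochberg adjusted p below 0.05, and the genotypes did not overlap for 6 of the 9. Over all tested genes, 22.0% were called, 12.0% higher and 10.0% lower, and 23.6% did not overlap between the genotypes. The median log2 fold change of the members was -0.06 and that of all tested genes -9.1e-05. The members were picked on this contrast, so nothing is read from their counts against those of the whole table. In bulk tissue, fewer cells of a type and less RNA per cell cannot be told apart.

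**Figure D3:**
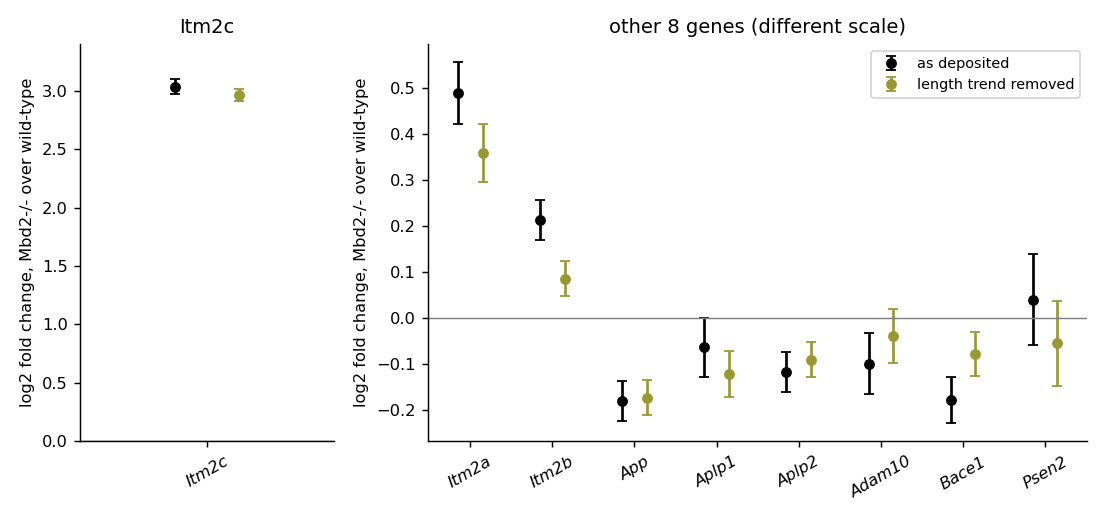
Log2 fold change of Mbd2-/- over wild-type (vertical axes, different scales for Itm2c and for the other 8 genes) with its SE, from the values as deposited (black) and with the trend on transcript length removed from each library (olive). Itm2c is at 3.03 and 2.96, Itm2b drops from 0.21 to 0.09, Bace1 moves from -0.18 to -0.08, and App stays at -0.18 and -0.17.

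The levels of the members spanned a wide range when taken as the mean normalized count per kb of the longest transcript. In wild-type the order was Aplp1 (7538), App (5083), Itm2b (4264), Aplp2 (1593), Itm2c (609), Adam10 (276), Bace1 (273), Itm2a (206) and Psen2 (81.8). The ranges of neighbours in this order overlapped only for Adam10 and Bace1, which also swapped places when the length of all exons was used instead. On that length Psen2 stood at 43.1 and Itm2c at 545. In Mbd2-/-, Itm2c stood at 5016, behind Aplp1 (7243) and beside Itm2b (4940) and App (4482), and the range of Itm2c overlapped those of Itm2b and App, which did not overlap each other. Itm2c exceeded 91.1% of the tested genes with a known transcript length in wild-type and 99.5% in Mbd2-/-. Itm2a (290) had a higher mean than Adam10 (258), though their ranges overlapped, and than Bace1 (241), while Aplp2 stood at 1468 and Psen2 at 84.5.

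**Figure D4:**
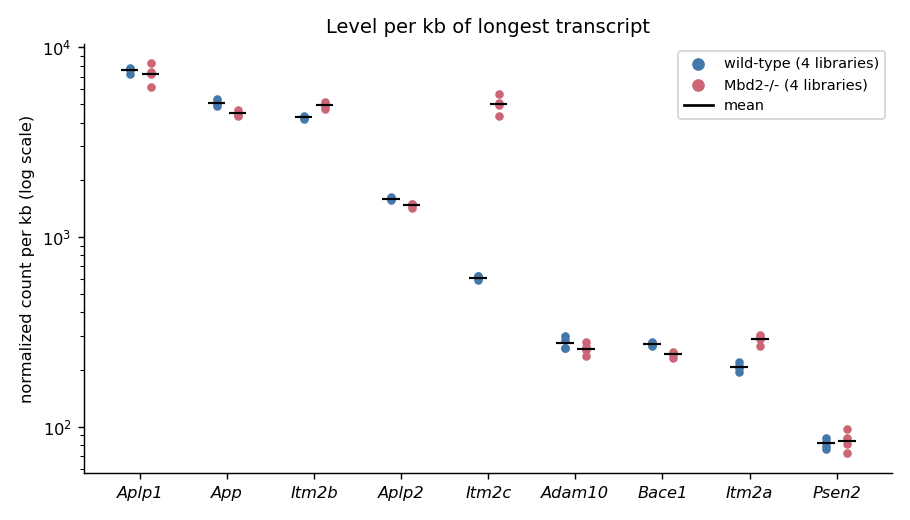
Normalized count per kb of the longest transcript (vertical axis, log scale) for each member in the 4 wild-type (blue) and 4 Mbd2-/- (red) libraries, with a line at each mean, in the wild-type order of means. Itm2c moves from 609 to 5016 and into the range of Itm2b and App, while Psen2 stays lowest, at 81.8 and 84.5.

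Other genes of amyloid precursor and Itm2 processing had log2 fold changes from -0.35 to 1.32, the highest being that of Ttr. Of 54 listed genes grouped by role, 53 were tested, and 5 were called higher, 6 lower and 42 not called, while 12 did not overlap between the genotypes. These are 20.8% and 22.6% of the 53, near the 22.0% and 23.6% of all tested genes. Their median log2 fold change was -0.04. The list was drawn up with earlier results of these data known, so counts for it and its groups are a description. Without Mbd2-/- replicate 4, 7 were called higher and 11 lower, where 35.5% of all tested genes were called. With the length trend removed, 7 were called higher and 3 lower, where 14.8% of all genes were called. Without wild-type replicate 1, 3 or 4, 3 were called lower, and the share of all genes called lower was 5.98%, 6.05% and 6.22% in place of 10.0%.

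The genes called higher lay mostly among those whose products bind or clear amyloid-beta, of which 4 of 6 rose, where 12.0% of all tested genes were called higher. This group was listed with earlier results of these data known, so the count is a description. Apoe, a lipid carrier made by astrocytes, rose from 14767 ± 909 (SD, n = 4) to 20669 ± 2568 normalized counts (log2 fold change 0.48, SE 0.08, limma, adjusted p = 7.11e-04). Cst3, the cystatin C gene, rose from 11046 ± 490 to 14736 ± 1302 (0.41, SE 0.06, limma, adjusted p = 2.50e-04), and Clu, the clusterin gene, from 10921 ± 119 to 12916 ± 656 (0.24, SE 0.05, limma, adjusted p = 0.00167). With the length trend removed, the log2 fold changes were 0.29 for Apoe, 0.13 for Cst3 and 0.12 for Clu, all still called. Ttr, whose product carries thyroid hormone and is secreted by the choroid plexus, rose from 12761 ± 648 to 32066 ± 3323 (limma, adjusted p = 3.42e-09). Astrocyte markers moved with these genes, with 6 of 8 called higher and a summed normalized count of 115653 to 118348 in wild-type and 128092 to 150851 in Mbd2-/-. Most of that sum is Slc1a2, with means of 86064 and 97196, which was not called (limma, adjusted p = 0.0525). Ttr is itself among the 12 choroid plexus markers, all of which were called higher. The part of either cell type in these increases was not tested.

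The genes called lower were 3 sorting proteins, a pair of Bace1 regulators and an App adaptor. Of 7 genes for sorting and endocytosis of App, 3 fell, where 10.0% of all tested genes were called lower. Sort1, the sortilin gene, fell from 9819 ± 55.4 (SD, n = 4) to 8197 ± 138 normalized counts (log2 fold change -0.26, SE 0.04, limma, adjusted p = 4.66e-04), and was still called at -0.15 with the length trend removed. Sorl1, a sorting receptor that keeps App away from secretases, went from 5705 ± 312 to 5088 ± 246 (-0.16, limma, adjusted p = 0.0336), and Picalm, a clathrin assembly gene, from 1713 ± 91.1 to 1488 ± 155 (-0.21, limma, adjusted p = 0.0401). The groups overlapped for Sorl1 and Picalm. With the length trend removed neither was called, at -0.02 for Sorl1 and -0.18 for Picalm (limma, adjusted p = 0.0565 for Picalm). When each of the 8 libraries was left out in turn, the call was lost in 7 fits for Picalm (limma, adjusted p up to 0.132) and in 5 for Sorl1 (up to 0.123). Of 6 genes in the group of the Bace1 homologue and Bace1 regulators, Gga3, which sorts Bace1 to lysosomes, fell from 743 ± 16.4 to 582 ± 31.3 (-0.35, limma, adjusted p = 8.46e-04). Rtn3, a reticulon that binds Bace1, fell from 12346 ± 202 to 11164 ± 448 (-0.15, limma, adjusted p = 0.0236), but was not called with the length trend removed (-0.07) or in 4 of the 8 fits that left out a library. Of 10 App adaptors, Clstn1, the calsyntenin-1 gene, was the one called by limma and edgeR, while DESeq2, which called 20.6% of all tested genes, called 1 of the 10 higher and 2 lower. Clstn1 stood at 12919 ± 229 in wild-type and 10642 ± 474 in Mbd2-/- (-0.28, limma, adjusted p = 5.05e-04).

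The groups of gamma-secretase, of alpha-secretases, of Itm2 proteases and of amyloid-beta degrading enzymes gave 1 call in all, where 22.0% of all tested genes were called. Of 8 gamma-secretase subunits and regulators, Psenen, which encodes the subunit PEN-2, was called higher at 219 ± 11.7 and 259 ± 16.0 normalized counts (SD, n = 4; log2 fold change 0.24, SE 0.08, limma, adjusted p = 0.0366). This call was lost under DESeq2 and in 6 of the 8 fits that left out a library, and the value turned to -0.08 with the length trend removed. Among 7 tested genes of alpha-secretases and their tetraspanins, the smallest p belonged to Tspan15, an Adam10 partner, at 300 ± 25.6 and 354 ± 37.5 (0.24, limma, adjusted p = 0.0604), and 2 of the 7 had an unadjusted p under 0.05. Among 5 proteases that cut Itm2 proteins, the furin-type and signal peptide peptidase-like enzymes, the smallest p was that of Sppl2b (-0.16, limma, adjusted p = 0.197). Among 4 enzymes that degrade amyloid-beta, it was that of Ece1 (-0.19, limma, adjusted p = 0.0668), the only one of the 4 with an unadjusted p under 0.05. Ece1 was called lower without Mbd2-/- replicate 3 (-0.23, limma, adjusted p = 0.0287). Outside the gamma-secretase group, limma, edgeR and DESeq2 each called 0 genes in these groups, and 0 of the 5 proteases had an unadjusted p under 0.05.

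**Figure D5:**
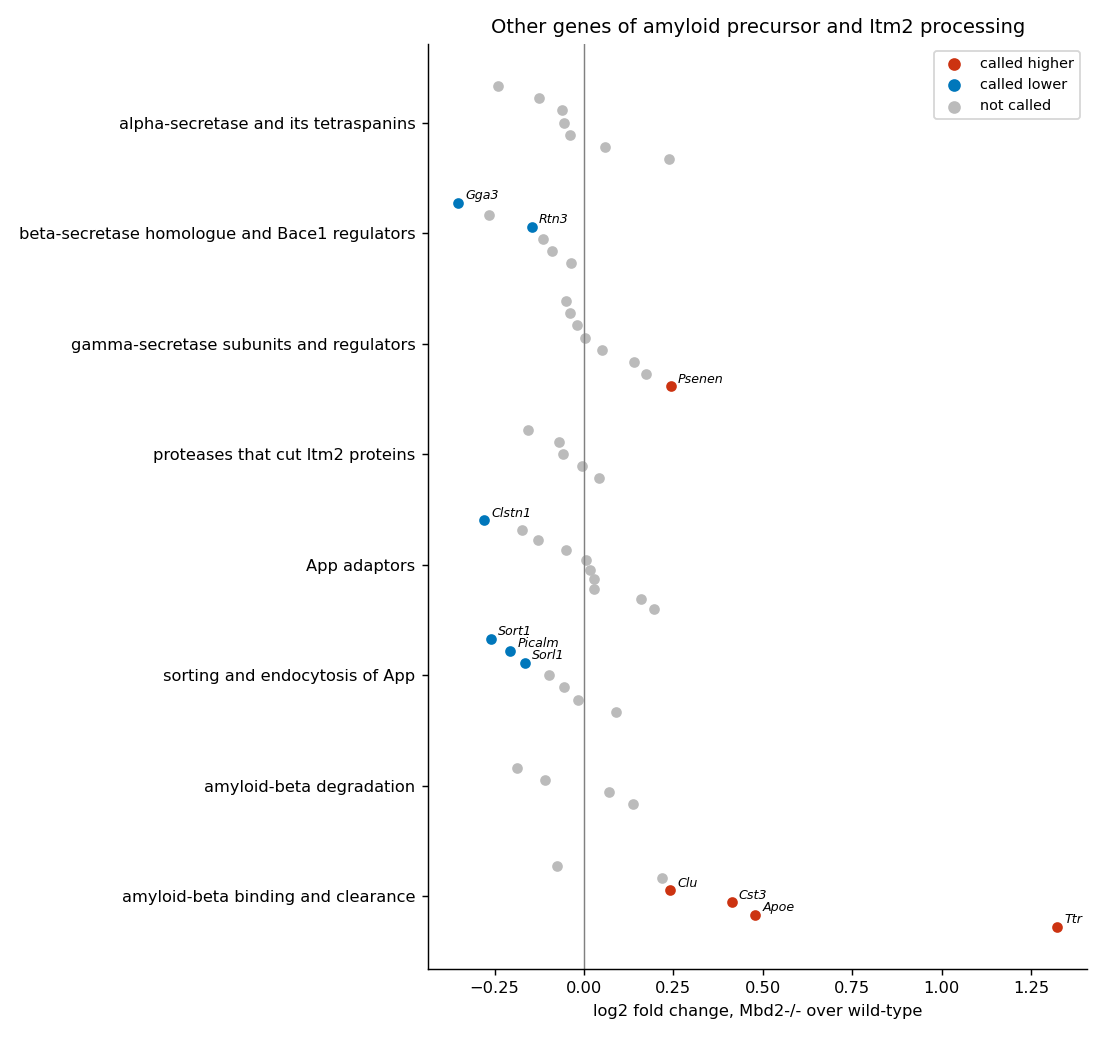
Log2 fold change of Mbd2-/- over wild-type (horizontal axis) of the 53 tested genes of amyloid precursor and Itm2 processing, in 8 groups by role (vertical axis), with called genes named and colored (limma, adjusted p under 0.05). Ttr lies at 1.32, the other called genes lie between -0.35 and 0.48, and most points are uncalled and near 0.

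The genes around Itm2c on chromosome 1 showed no change of that size. Of the 5 nearest tested genes on each side, 1 of 10 was called by limma, edgeR and DESeq2, where limma called 22.0% of all tested genes. This was 2810459M11Rik, 137 kb away, which rose from 313 ± 20.1 (SD, n = 4) to 381 ± 17.4 normalized counts (log2 fold change 0.28, SE 0.07, limma, adjusted p = 0.0114). The nearest tested neighbours were Cab39, 42.7 kb before Itm2c, with a log2 fold change of -0.07 (SE 0.07), and 4933407L21Rik, 19.8 kb after it, with 0.36 (SE 0.19). With the length trend removed, these were -0.04 and 0.13. Gpr55, 30.9 kb after Itm2c, had -0.65 (SE 0.29) at 20.6 ± 8.12 and 12.3 ± 3.03 normalized counts and was not called (limma, adjusted p = 0.122). Of the other 6, Psmd1 and Armc9 lay at -0.02 and -0.0044, Sp140 and Sp100 at -0.07 and 0.05, and Fbxo36 and Slc16a14, over 2859 kb away, at 0.22 and -0.18. Like Gpr55, 4933407L21Rik, Sp140, Sp100 and Fbxo36 were low, with wild-type means of 25.0, 22.2, 27.0 and 26.4 normalized counts, so these genes can show little.

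Markers of some other cell types moved together with Itm2c. All 12 choroid plexus markers were called higher in Mbd2-/-, where 12.0% of all tested genes were called higher and 10.0% lower, and their summed normalized count was 24054 to 25724 in wild-type and 46522 to 53042 in Mbd2-/-, a ratio of means of 2.05 beside the 8.23 of Itm2c. For Ttr, the most abundant of them, the ratio was 2.51. Oligodendrocyte markers were called higher for 6 of 8, with sums of 78020 to 79297 and 91978 to 98326, and microglial markers for 6 of 9, with sums of 4537 to 4649 and 4964 to 5762. Thalamic markers were called lower for 6 of 8, with sums of 3925 to 4111 and 2649 to 3206. Of 6 interneuron markers, 3 were called higher and 2 lower, with sums of 9068 to 9382 and 8164 to 9173, and of 9 endothelial markers 2 were called higher and 1 lower, with sums of 2871 to 2978 and 2877 to 3096. None of the markers in these lists was at 0 in every library. The marker lists were chosen with earlier results of these data known, so these counts are a description. The part of these cell types in the values of Itm2c and the other members was not tested.

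Over the 8 libraries, the genes whose log2 values were most like those of Itm2c were Mobp (Pearson's r 0.997), a myelin gene, Cdr2 (0.994), Ttr (0.994), Folr1 (0.992), a folate receptor gene of the choroid plexus, and Sostdc1 (0.992). Folr1 and Sostdc1 are in the choroid plexus list, and Mobp is in the oligodendrocyte list. Their own log2 fold changes were 0.33 for Mobp, 0.59 for Cdr2, 1.14 for Folr1 and 0.99 for Sostdc1. Of the members, Itm2a (0.97) and Itm2b (0.96) came closest, and Bace1 (-0.93), Aplp2 (-0.92) and App (-0.89) ran opposite. These coefficients are a description. The genes share the libraries and their size factors, and the libraries fall into 2 genotypes, whose gap dominates each coefficient.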

How the data were processed

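RNA was measured in 8 hippocampal libraries, grouped by the genotype in the labels. Before deposit, the authors discarded duplicate reads, used STAR to align to mm9 and DESeq2 to normalize. Versions, the counting tool and its strand setting are not given in the sources used here. The signal deposited for a library is its normalized counts, that is, reads per gene over the size factor from DESeq2. Whole reads were recovered through division by the smallest non-zero value, and within 0.01 of a read 100% of values came out whole. The table also holds the authors' mean over libraries, moderated log2 fold changes with errors, test statistic and p-values, which were not used.

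The main test was limma 3.58.1 (trend, robust) in R 4.3.3 on log2(normalized count + 1). It covered the 14504 genes averaging 10 or more normalized counts, and a gene was called when its Benjamini-Hochberg adjusted p over all of them was below 0.05. A log2 fold change is on this scale, which understates changes of low genes. edgeR 4.0.16 (quasi-likelihood test) and DESeq2 1.42.0 were run on the recovered reads. They called 1770 genes higher and 1402 lower, and 1656 higher and 1332 lower. Depth ran from 8087750 to 23790825 reads on genes per library, and the variance between libraries of a genotype was 1.92 to 14.1 times that of counting alone. The scripts were tested on simulated data. Gene models came from GENCODE vM1 on mm9, matched for 93.2% of symbols, and promoters from RefSeq, found in mm9 by exact match.

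The members and the lists were chosen with earlier results of these data known. Genes named are the 9 members, Mbd2, called genes of each role group (at most 4 in each direction, otherwise the gene with the smallest p), the 5 nearest tested genes on each side of Itm2c, the 5 most like it, and abundant markers. Alternatives were both count tests, TMM and upper quartile scaling, a pseudocount of 5, no filter or a minimum of 50, a replicate block, a length trend (lowess) removed, exon-union lengths, and each library left out.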

Additional observations from a re-analysis of the deposited data

Results flagged for a closer look

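For part of the named genes, 78 groups of 4 libraries were checked for a library far from the others by Dixon's ratio at its 95% critical value, and 2 were found, where chance gives about 1 in 20 groups. Fibcd1 and Ddx3y were not covered. Fibcd1 in Mbd2-/- replicate 4 was at 1555 normalized counts, beside 1798 to 1829 in the other Mbd2-/- libraries. Ddx3y in wild-type replicate 3 was at 469, beside 603 to 630. Aplp2 in Mbd2-/- replicate 3, at 5234 normalized counts, lay below the other Mbd2-/- libraries, which were at 5468 to 5505. Clu in Mbd2-/- replicate 4, at 11932, lay below the other 3, which were at 13204 to 13276.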

How the results depend on the processing

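Over the 17 alternatives Itm2c ranged from 2.96 to 3.10 on the log2 scale. It was chosen on this contrast, so its range is a description. With the length trend removed, 1130 genes were called higher and 949 lower (14014 genes with a length), 1 member was called lower, 7 genes of the pathway list were called higher and 3 lower, and the values of Psen2 and Psenen turned to -0.056 and -0.083. That alternative lost the calls of the members Itm2b and Bace1 and of Rtn3, Sorl1, Picalm and Psenen in the pathway list, and gained those of Tspan15, Mapk8ip1 and A2m (the last 2 named after their values were seen). Per kb, the share of Itm2c was 12.0% in wild-type and 48.9% in Mbd2-/-. When each library was left out in turn, 1170 to 2596 genes were called higher and 868 to 2559 lower, with the most in both directions without Mbd2-/- replicate 4. Members called lower ranged from 1 to 3 and pathway genes called lower from 3 to 11. With single libraries left out, Aplp1 ranged from -0.13 to 0.0084 (without Mbd2-/- replicate 4) and Psen2 from -0.034 (without Mbd2-/- replicate 2) to 0.11. The cause of these changes was not tested. Of 17 alternatives, the call of Picalm was lost in 9, that of Sorl1 in 6 and that of Rtn3 in 5, and that of Psenen was lost in 9 besides the reversal, while Tspan15 was called in 4.

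Both groups carry replicate numbers, but the correlations of deviations between libraries of the same number were -0.10, -0.06, 0.07 and 0.04, so the numbers do not pair the libraries. With the number as a replicate block, 1743 genes were called higher and 1449 lower, against 1735 and 1450 without it, and the members gave the same counts, 3 higher and 2 lower. In the pathway list the block lost the call of Psenen (limma, adjusted p = 0.0552) and gained those of Tspan15 (0.0440) and Mapk8ip1, so that 6 genes were called higher and 6 lower.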
